A study of Homo sapiens with 6 samples.

Results

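ERV3-1, ERVMER34-1, ERVK3-1 and ERVK13-1 are annotated human genes that derive from endogenous retroviruses (ERVs). They were chosen by name, and their levels were taken from the deposited gene tables, where they are 4 of 28307 listed Gene IDs. Each gene was then read beside the loci of the LTR class of transposable elements (TEs) that lie inside its span. These loci numbered 26 positions in all.

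An ERV is the remnant of a retrovirus that entered the germ line. A provirus has an internal part that once coded for Gag, Pol and Env, written with the ending "-int" in the RepeatMasker annotation, between a pair of long terminal repeats (LTRs). The LTRs carry the viral promoter and the polyadenylation signal. Many human copies are solo LTRs, and only a few proviruses still serve as genes, most of them with a retained envelope reading frame or as noncoding RNAs. In most somatic tissues LTR promoters are held silent by histone and DNA methylation, whereas placenta is known for high expression of several ERV envelopes.

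The cells were SW480, an established human colon adenocarcinoma line. In both groups the cells had been transduced with a pLENTI vector with the CMV promoter and selected with an antibiotic, so both groups carried a lentiviral insert. The control lines expressed the fluorescent protein Clover (n = 3), and the other lines expressed Z18trunc, a truncated form of the nuclear RNA surveillance factor ZC3H18 (n = 3). The labels name neither single-cell cloning nor a change to the cells' own ZC3H18 gene, so the comparison is of added truncated protein. Polyadenylated RNA was sequenced from stranded libraries, with 18226033 to 22463310 aligned fragments per library. Levels are given in TPM (transcripts per 1000000, a level per transcript length). The level listed for ZC3H18 was 57.2 ± 5.39 TPM in Clover and 763 ± 31.2 TPM in Z18trunc (SD, n = 3 each), without overlap. Its log2 change was 3.72 (SE 0.09, limma adjusted p = 3.21e-05). The listed level does not separate RNA of the added construct from RNA of the cells' own ZC3H18 gene. Of 8 markers of colon epithelium, 6 averaged 1 TPM or more, with KRT8 at 9940 ± 213 and KRT18 at 11600 ± 454 TPM in Clover, whereas KRT20 and LGR5 were listed at 0 in all 6 libraries. Of 4 markers of other cell types, PTPRC and PECAM1, which mark blood and endothelial cells, were also listed at 0. COL1A1, a fibroblast marker, was at 1.39 ± 0.169 TPM in Clover and 1.35 ± 0.206 TPM in Z18trunc (SD, n = 3 each). CD3E, a blood cell marker, averaged 0.0286 TPM in Clover and 0.107 TPM in Z18trunc.

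The sequences just before the annotated transcription starts were compared with the LTR loci at which fragments were counted. These sequences are the 250 bases before the start that RefSeq (GRCh38.p14) gives, in the direction of the gene. All 4 genes matched an entry, ERV3-1 with a pair of starts. Capitals mark TATAAA (the core promoter box), CCAAT (the box read by NF-Y) and GGGCGG (the box read by Sp1), each searched on both strands. In the printed windows the matches do not overlap. The upstream and the LTR start of ERV3-1 are shown because only 1 of the 2 windows lay in a listed LTR. The start of ERVK3-1 is shown because its provirus held the one locus that passed the adjusted test.
ERV3-1, start inside the LTR4 copy, chr7:64999443-64999692, minus strand: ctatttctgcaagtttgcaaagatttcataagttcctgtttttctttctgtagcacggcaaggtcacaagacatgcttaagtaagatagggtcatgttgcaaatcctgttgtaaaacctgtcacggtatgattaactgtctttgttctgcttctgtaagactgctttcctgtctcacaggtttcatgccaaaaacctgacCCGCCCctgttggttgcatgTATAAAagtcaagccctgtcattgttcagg
ERV3-1, upstream start, chr7:65006688-65006937, minus strand: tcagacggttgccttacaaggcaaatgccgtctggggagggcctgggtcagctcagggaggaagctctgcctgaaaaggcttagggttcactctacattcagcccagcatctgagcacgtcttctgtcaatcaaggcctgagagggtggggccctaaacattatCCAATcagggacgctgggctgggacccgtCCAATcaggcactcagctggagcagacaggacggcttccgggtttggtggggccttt
ERVK3-1, start, chr19:58305127-58305376, plus strand: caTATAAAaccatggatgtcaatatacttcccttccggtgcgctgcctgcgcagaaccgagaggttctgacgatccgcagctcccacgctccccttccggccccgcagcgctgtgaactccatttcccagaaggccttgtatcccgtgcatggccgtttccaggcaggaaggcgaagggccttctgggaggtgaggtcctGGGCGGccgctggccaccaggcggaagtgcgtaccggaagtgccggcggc

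The first window lay wholly in an LTR4 copy (250 of 250 bases), held 42.0% G and C with 3 CpG pairs, and had the letters TATAAA beginning 30 bases before the start. The other windows overlapped no LTR locus with a counted fragment. An LTR without fragments is not listed, so this cannot tell whether those starts lie outside LTRs. The upstream ERV3-1 window held 58.0% G and C and 2 copies of CCAAT. In the ERVK3-1 window, with 63.2% G and C and 20 CpG pairs, TATAAA lay far from the start, 248 bases before it. The windows of ERVMER34-1 (chr4:52751426-52751675, minus strand, 69.6% G and C) and ERVK13-1 (chr16:2673440-2673689, minus strand, 80.4% G and C, 35 CpG pairs) held GGGCGG 4 and 5 times and no TATAAA. The ERVMER34-1 window lies partly inside the deposited span of the gene, which reaches 52751640. The canonical GENCODE transcript of ERVK13-1 has its first exon farther upstream, at 2682140 to 2682369, and the bases before that exon were not read. Which starts are used in these cells was not tested. Over 35116 RefSeq windows of the same length, 10.7% held TATAAA, 32.0% CCAAT and 42.6% GGGCGG, and the median window had 58.0% G and C and 11 CpG pairs. A match describes letters in the window and is no measured binding site.

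The order of the levels was the same in all 6 libraries: ERVK3-1, then ERVMER34-1, ERV3-1 and ERVK13-1, and no neighbours in that order overlapped in TPM. In mean TPM, 92.6% of the listed genes lay below ERVK3-1, 89.6% below ERVMER34-1, 70.1% below ERV3-1 and 50.8% below ERVK13-1. Of these genes, 0 passed limma's adjusted test of Z18trunc against Clover, where 2 of the 13300 genes averaging 1 TPM or more (0.015%) were called. At an unadjusted p under 0.05 there was 1 of them, ERVMER34-1, beside 28.5% of the 13300 genes. The median log2 change of all 13300 genes was 0.11 and became -0.01 after quantile normalization. The changes of ERVK3-1 and ERV3-1 were below 0.11. That of ERVMER34-1 was 0.28, and 0.19 after quantile normalization. ERVK13-1 averaged below 1 TPM and is not among the 13300 genes. In the fit that includes ERVK13-1 its log2 change was 0.05, and 0.11 with a pseudocount of 0.1. The part of the shared shift in these changes was not tested.

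ERVK3-1 (hg38, chr19:58305374-58315657, plus strand) is a spliced gene over a HERVK3 provirus. It was at 76.5, 72.2 and 84.8 TPM in Clover and at 78.8, 85.7 and 80.2 TPM in Z18trunc. The groups overlapped, with means of 77.8 ± 6.42 and 81.6 ± 3.68 TPM (SD, n = 3 each). In limma the log2 difference was 0.07 (SE 0.09, adjusted p = 0.633).

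ERVMER34-1 (hg38, chr4:52742553-52751640, minus strand) codes for the ERV envelope protein known as HEMO, which is made in placenta and stem cells and is shed from the cell. It was at 50.4, 41.4 and 54.6 TPM in Clover and at 56.9, 61.7 and 58.1 TPM in Z18trunc, so that all Z18trunc values lay above all Clover values. This was also so for 30.1% of the 13300 genes. The means were 48.8 ± 6.73 and 58.9 ± 2.51 TPM (SD, n = 3 each). In limma this was a log2 difference of 0.28 (SE 0.11), which did not pass the adjustment (adjusted p = 0.166). After quantile normalization it was 0.19, and without Clover replicate 2, the lowest library, 0.16.

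ERV3-1 (hg38, chr7:64990356-65006687, minus strand) is the gene of the HERV-R provirus, whose envelope reading frame is known from placenta. Its 3 Clover values were 9.53, 6.11 and 9.32 TPM and its 3 Z18trunc values 8.82, 8.19 and 8.37 TPM. All 3 Z18trunc values fell between the lowest and the highest Clover value, and the means were 8.32 ± 1.91 and 8.46 ± 0.325 TPM (SD, n = 3 each). The log2 change of 0.04 (SE 0.16, limma adjusted p = 0.882) had no stable sign, and without Clover replicate 2 it was -0.14.

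ERVK13-1 (hg38, chr16:2658389-2673439, minus strand), a noncoding gene over a HERVK13 provirus, was below 1 TPM in every library. It was at 0.698, 0.579 and 0.676 TPM in Clover and at 0.782, 0.665 and 0.678 TPM in Z18trunc, with overlap. In the limma fit of all 19182 genes with a TPM above 0 in any library, where 0.00521% were called, its log2 change was 0.05 (SE 0.06, adjusted p = 0.684). The log2(TPM + 1) scale understates changes of such a low gene.

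**Figure D1:**
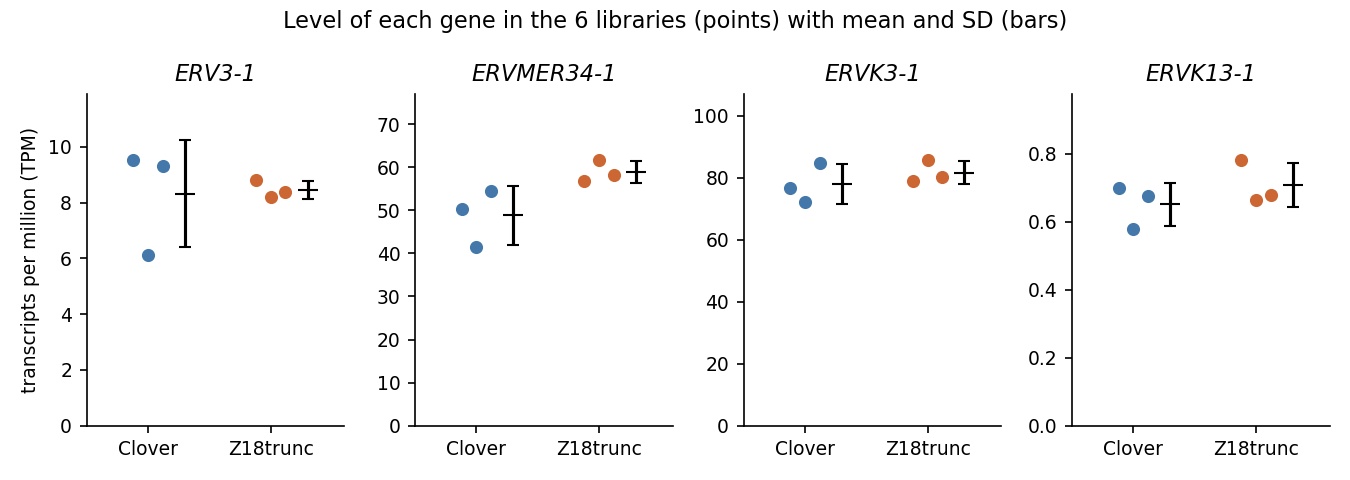
TPM (y axis, linear from 0, its own scale for each gene) in the 3 Clover and the 3 Z18trunc libraries, with each point a library and each bar the mean and SD. The groups overlap for ERV3-1, ERVK3-1 and ERVK13-1, and for ERVMER34-1 the lowest Z18trunc value of 56.9 TPM lies above the highest Clover value of 54.6 TPM.

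The other genes with ERV names gave little or no RNA in these cells. ERVW-1 (syncytin-1), ERVFRD-1 (syncytin-2), ERVV-1, ERVV-2 and ERVH48-1 were listed at 0 TPM in all 6 libraries. No LTR locus wholly inside their spans held a fragment in the direction of the gene. These were 5 of 8 listed genes, a count that includes ZNF117. The remaining 3, the readthrough genes ERV3-1-ZNF117 and ZNF8-ERVK3-1 and the gene ZNF117, were below 1 TPM in every library. ZNF8-ERVK3-1 was at 0.391 ± 0.335 TPM in Clover and 0.222 ± 0.0478 TPM in Z18trunc (SD, n = 3 each), and all LTR fragments counted in ERVK3-1 also lie in its span.

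Fragments at the LTR loci divide each gene by the part of the provirus they come from. Values are counts per 1000000 aligned fragments (CPM). Where no fragment was counted, up to 3 counts (0.134 to 0.165 CPM) remain possible from counting error alone. A locus was called exonic where it overlapped an exon of the GENCODE 44 canonical transcript by any stretch and intronic otherwise, so an exonic locus can still hold intron and an intronic one an exon of another transcript. Of the 26 positions, 16 passed the minimum of 30 counts on the locus's own strand. Among these 16, 1 passed the edgeR adjusted test, beside 0.57% of all 2105 LTR loci tested. Groups did not overlap at 6 of the 16, all higher in Z18trunc, beside 14% of LTR loci. At an unadjusted p under 0.05, 5 were higher, beside 10.5% of LTR loci. Of the other 10, 2 lie against their gene and were tested on the opposite strand of the locus, and 8 fell below the minimum, so the tested loci are no sample of all 26.

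The median log2 change was 0.09 over 712 exonic, 0.20 over 792 intronic and 0.27 over 601 intergenic LTR loci, and 0.17 over all 2105. Over the tested loci in the 4 genes it was 0.19 for the 10 exonic and 1.03 for the 6 intronic ones. These 6 are not independent, since 3 lie in ERVK3-1 and 2 in ERV3-1. The remaining 1, the 5′ LTR13 copy of ERVK13-1, had 29.6 counts, and all its 1013 bases are exon in another transcript. Of the 6 intronic loci, 3 did not overlap between groups, beside 13.3% of all intronic LTR loci tested. With TMM scaling the median of all LTR loci moved from 0.17 to 0.00 and that of the 16 loci from 0.32 to 0.15.

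**Figure D2:**
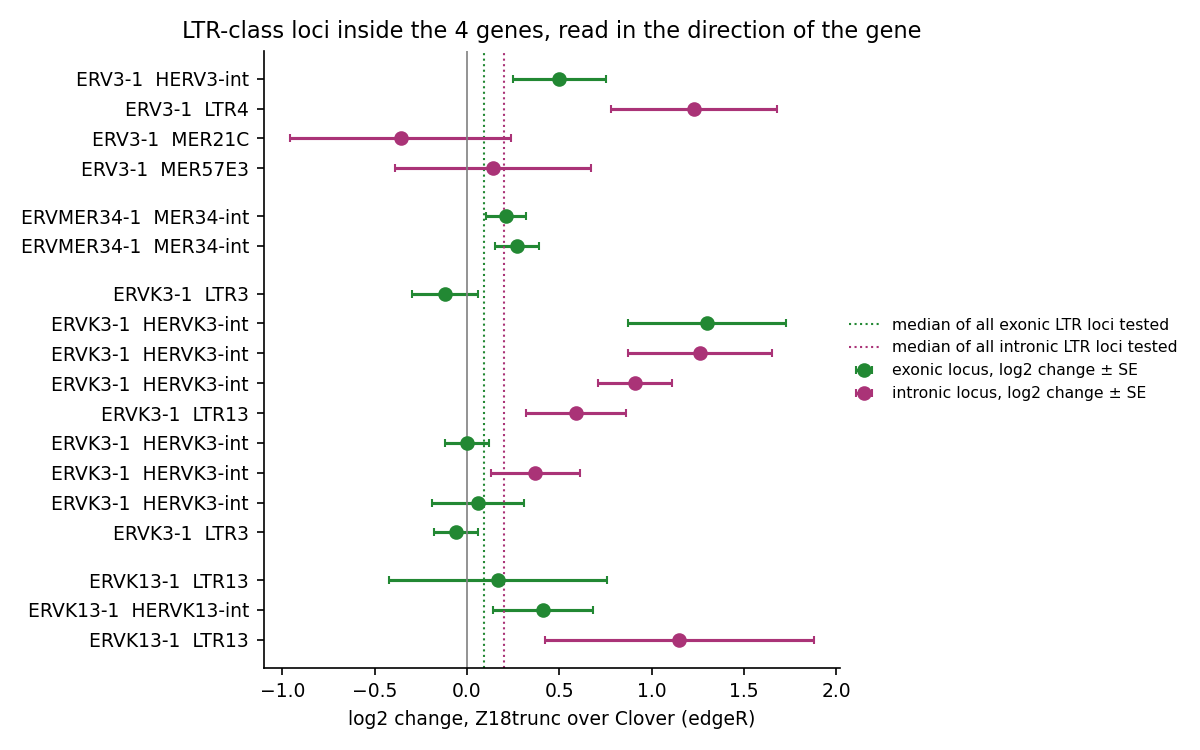
Log2 change of Z18trunc over Clover with its SE (x axis, edgeR) for the 18 LTR loci tested in the direction of each gene, listed by gene and genome position, with exonic loci in green and intronic loci in purple. Dotted lines are the medians of all exonic (0.09) and all intronic (0.20) LTR loci, and the 3 HERVK3-int and LTR4 loci farthest to the right have changes of 1.30, 1.26 and 1.23.

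In ERVK3-1 the fragments concentrated at exons near the end of the provirus. The 3′ LTR3 copy (58314840 to 58315267), which lies wholly in the last exon, held 16.9, 16.3 and 18.8 CPM in Clover and 16.2, 17.5 and 16.2 CPM in Z18trunc. The HERVK3-int locus at 58311249 to 58313278, which contains an exon of 297 bases, held 15.9, 16.5 and 20.1 CPM in Clover and 17.4, 18.2 and 16.9 CPM in Z18trunc. Both loci overlapped between groups, with log2 changes of -0.06 (SE 0.12, edgeR adjusted p = 0.915) and -0.00 (SE 0.12, adjusted p of 1). The short HERVK3-int locus at 58314651 to 58314839, with 92 of 189 bases in an exon, overlapped too. It held 1.48, 1.94 and 2.14 CPM in Clover and 2.46, 1.91 and 1.39 CPM in Z18trunc (log2 change 0.06, SE 0.25, edgeR adjusted p = 0.962). Per kilobase the 3′ LTR3 copy was at 39.7 CPM and the 5′ LTR3 copy (58305671 to 58306101), with 14 bases of an exon, at 8.81 CPM. That 5′ copy held 3.97 ± 0.270 CPM in Clover and 3.62 ± 0.200 CPM in Z18trunc (SD, n = 3 each), with overlap. The paired LTRs share 93.2% of 428 aligned bases, and 48.0% of the fragments at the 5′ and 73.4% at the 3′ copy were uniquely mapped.

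The long HERVK3-int stretch at 58307323 to 58310256, intronic in the canonical transcript, differed between the groups. Of its 2934 bases, 1227 are exon in a GENCODE 44 transcript of the gene that is itself annotated as a retained intron. It held 2.85, 1.67 and 3.16 CPM in Clover and 4.12, 5.21 and 5.24 CPM in Z18trunc, from 64, 32 and 62 counts against 92.5, 95 and 110. All Z18trunc values lay above all Clover values, with means of 2.56 ± 0.784 and 4.86 ± 0.640 CPM (SD, n = 3 each). By edgeR it rose by 0.91 on the log2 scale (SE 0.20, adjusted p = 0.038), and this was the one locus in the 4 genes that passed. The call did not hold with TMM scaling (log2 change 0.74, adjusted p = 0.206), without Clover replicate 2 (0.69, adjusted p = 0.234) or without any one Z18trunc library (adjusted p from 0.0887 to 0.211). Over 12 alternatives the log2 change ran from 0.69 to 1.08 and the adjusted p, where one was given, from 0.0201 to 0.271, and 5 kept the call.

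The other intronic loci of ERVK3-1, and the exonic one at 58306118, are named here after their values were seen. HERVK3-int at 58306515 to 58307228, with 120 of 714 bases in a retained-intron transcript, held 0.356, 0.314 and 0.815 CPM in Clover and 0.891, 0.988 and 1.67 CPM in Z18trunc, without overlap (log2 change 1.26, SE 0.39, edgeR adjusted p = 0.237). HERVK3-int at 58306118 to 58306453 has 99 of 336 bases in a canonical exon and all 336 in exons of retained-intron transcripts. It held 0.313, 0.209 and 0.566 CPM against 0.769, 0.823 and 1.10 CPM (log2 change 1.30, SE 0.43, edgeR adjusted p = 0.274). Of its fragments, 43.9% were uniquely mapped. The HERVK3-int locus at 58313591 to 58314344, in the last intron, overlapped between groups at 1.62 ± 0.185 and 2.11 ± 0.378 CPM (SD, n = 3 each).

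A second LTR type interrupts the provirus. An LTR13 copy (58310257 to 58311248, minus strand) lies inside the HERVK3 sequence and against its direction. All 992 bases are exon in the retained-intron transcript, and 50 of them also in another kind of noncanonical transcript. Of its aligned bases, 95.2% and 94.6% are identical to the 3′ and 5′ LTR13 copies of ERVK13-1. Fragments in the direction of ERVK3-1 crossed it at 1.35, 1.10 and 1.12 CPM in Clover and 1.67, 2.03 and 1.67 CPM in Z18trunc, without overlap. These lie on the opposite strand of the LTR itself, and in the edgeR fit of opposite-strand counts the log2 change was 0.59 (SE 0.27, adjusted p = 0.506). In that fit 0 of 1487 LTR loci (0%) were called, with 172 at an unadjusted p under 0.05, and groups did not overlap, higher in Z18trunc, at 14.4%. On the LTR13 copy's own strand there were 25.4 counts over the 6 libraries.

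**Figure D3:**
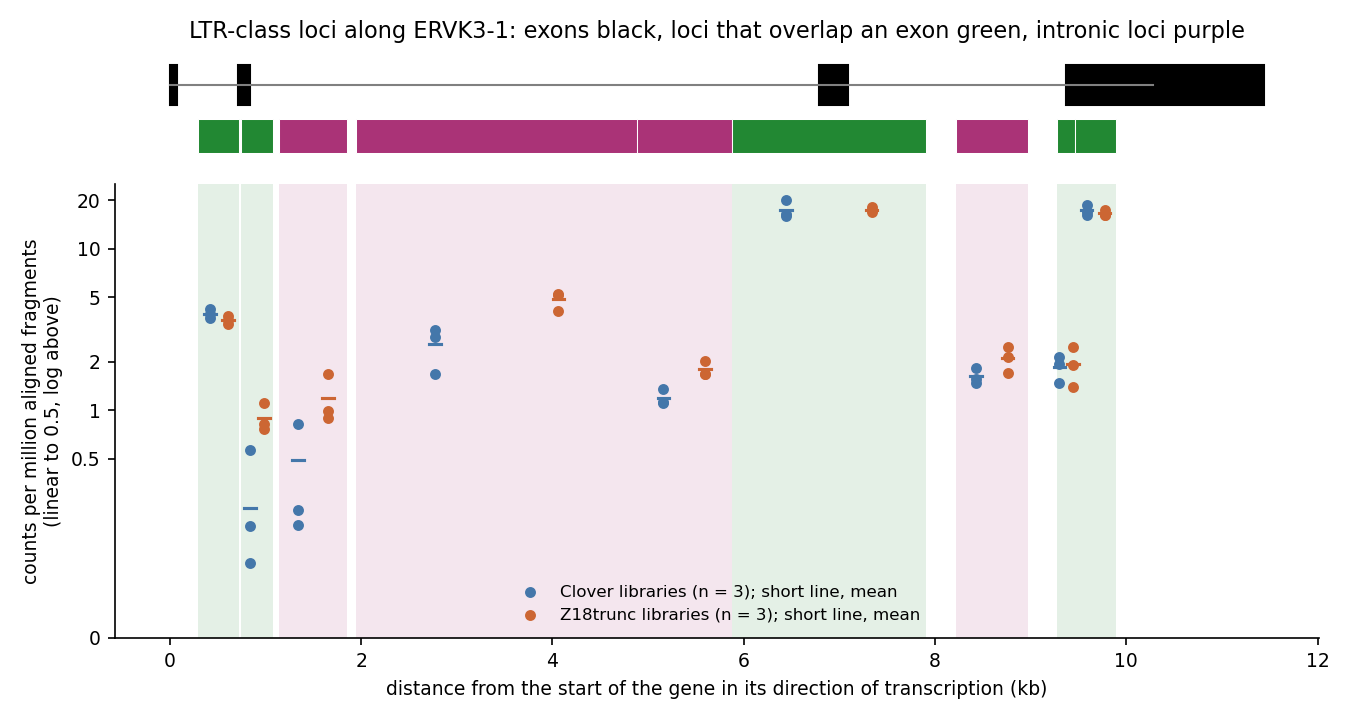
CPM (y axis, linear to 0.5 and logarithmic above) of fragments in the direction of ERVK3-1 at its 9 LTR-class positions, against the distance from the gene start in kb, with each point a library, short lines the group means, exons in black, exonic loci in green and intronic loci in purple. The last exon of the canonical transcript runs past the end of the deposited span. Clover and Z18trunc points overlap at the loci near 17 CPM and are apart at the longest intronic locus, from 1.67 to 3.16 CPM against 4.12 to 5.24 CPM.

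Summed over loci, a split made after the values were seen, the 5 exonic loci of ERVK3-1 held 38.6, 39.3 and 45.3 CPM in Clover and 40.7, 41.9 and 39.2 CPM in Z18trunc (log2 ratio of the means -0.02, exact two-sided permutation p = 0.9). The 4 loci outside canonical exons, called intronic here although 3 of them overlap retained-intron transcripts, held 6.12, 4.91 and 6.57 CPM against 8.82, 10.7 and 10.3 CPM, without overlap, with a log2 ratio of 0.76 (exact two-sided permutation p = 0.1, the smallest that 3 against 3 libraries allow). Both sums depend on the rule that any overlap makes a locus exonic. The exonic side holds the 5′ LTR3 copy, with 14 of 431 bases in an exon (log2 change -0.12). It also holds HERVK3-int at 58306118, with 99 of 336 bases in a canonical exon (log2 change 1.30). Sums with either locus on the other side were not formed. For every 100 exonic counts there were 15.9, 12.5 and 14.5 intronic counts in Clover and 21.7, 25.6 and 26.2 in Z18trunc. With uniquely mapped counts these were 16.3 ± 1.91 and 25.9 ± 3.25 (SD, n = 3 each), also without overlap. The sum over all 9 positions overlapped, at 46.9 ± 4.32 and 50.5 ± 1.78 CPM (exact permutation p = 0.3). Fragments on the opposite strand of TE loci genome-wide moved with the groups as well, at 22100 to 24400 CPM in Clover and 24900 to 27700 CPM in Z18trunc, and their part in the result was not tested. Per 100000 such fragments the intronic ERVK3-1 counts were 25.0, 21.4 and 29.7 in Clover and 35.4, 40.2 and 37.2 in Z18trunc, still without overlap. Whether these fragments came from unspliced RNA or from other isoforms was not tested. In bulk RNA, more cells with such RNA and more of it per cell cannot be told apart.

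Against the direction of ERVK3-1, 523.4 counts lay at 6 of its positions, and 426 of them at the 3′ LTR3 copy. There LOC105372480, a gene on the minus strand, overlaps ERVK3-1. That copy held 3.52 ± 0.124 CPM in Clover and 3.44 ± 0.170 CPM in Z18trunc on the minus strand (SD, n = 3 each), and LOC105372480 was at 13.8 ± 0.869 and 13.1 ± 2.26 TPM, both with overlap. In ERV3-1, ERVMER34-1 and ERVK13-1 only 1, 2 and 2 counts over the 6 libraries lay against the gene.

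In ERVMER34-1 nearly all LTR fragments came from the coding exon. The MER34-int locus at 52743873 to 52744782, whose 910 bases are all coding, held 25.4, 23.7 and 29.8 CPM in Clover and 31.0, 32.5 and 27.6 CPM in Z18trunc. The next one, at 52744841 to 52746178 with 680 coding bases, held 26.0, 19.2 and 27.9 CPM against 28.5, 30.5 and 29.1 CPM. The groups overlapped at the first and not at the second, and neither change passed (log2 0.21, SE 0.11, edgeR adjusted p = 0.557, and log2 0.27, SE 0.12, adjusted p = 0.451). Their unique share was 74.0% and 75.9%. The other 5 positions, all intronic, held 10 counts or fewer each over the 6 libraries. Summed LTR fragments per TPM of the gene were alike in all libraries, from 0.975 to 1.06 CPM per TPM.

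ERV3-1 lies over a provirus of 1 HERV3-int stretch between a pair of LTR4 copies that share 91.4% of 591 aligned bases. HERV3-int (64990916 to 64999343) has 8428 bases, of which 2499 are exonic and 1812 coding. It held 1.51, 1.15 and 1.68 CPM in Clover and 2.09, 2.08 and 2.0 CPM in Z18trunc, without overlap (log2 change 0.50, SE 0.25, edgeR adjusted p = 0.505). The 5′ LTR4 copy (64999344 to 64999936), which contains the LTR start printed above and no exon of a GENCODE 44 transcript, held 6, 4 and 11 counts in Clover and 18, 17 and 15 in Z18trunc. That is 0.346 ± 0.188 against 0.816 ± 0.110 CPM (SD, n = 3 each), without overlap, and edgeR gave a log2 difference of 1.23 (SE 0.45, adjusted p = 0.328). The 3′ LTR4 copy, which runs past the end of the gene and stays out of the sums, overlapped at 0.333 ± 0.176 and 0.508 ± 0.248 CPM.

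The remaining LTR loci of ERV3-1 lie in its intron, nearer the start, and belong to other ERV families. MER21C at 65001742 to 65002088 was at 0.374 ± 0.279 CPM in Clover and 0.289 ± 0.0830 CPM in Z18trunc (SD, n = 3 each), and MER57E3 at 65005696 to 65006181 at 0.427 ± 0.290 and 0.470 ± 0.229 CPM, both with overlap. A pair of MER92B copies held 18 counts or fewer each. All LTR loci of the span summed to 2.98, 1.73 and 3.97 CPM in Clover and 4.19, 3.73 and 3.86 CPM in Z18trunc, with overlap (log2 ratio 0.44, exact permutation p = 0.3). Without Clover replicate 2 that ratio was 0.17 and without Clover replicate 3 it was 0.74. Per TPM of the gene they were 0.313, 0.282 and 0.426 CPM in Clover and 0.475, 0.456 and 0.461 CPM in Z18trunc, without overlap, although the gene level itself overlapped. That ratio was formed after the values were seen. In the same span 9 loci of other TE classes summed to 1.29, 0.889 and 1.48 CPM in Clover and 1.51, 2.08 and 1.52 CPM in Z18trunc, also without overlap (exact permutation p = 0.1).

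**Figure D4:**
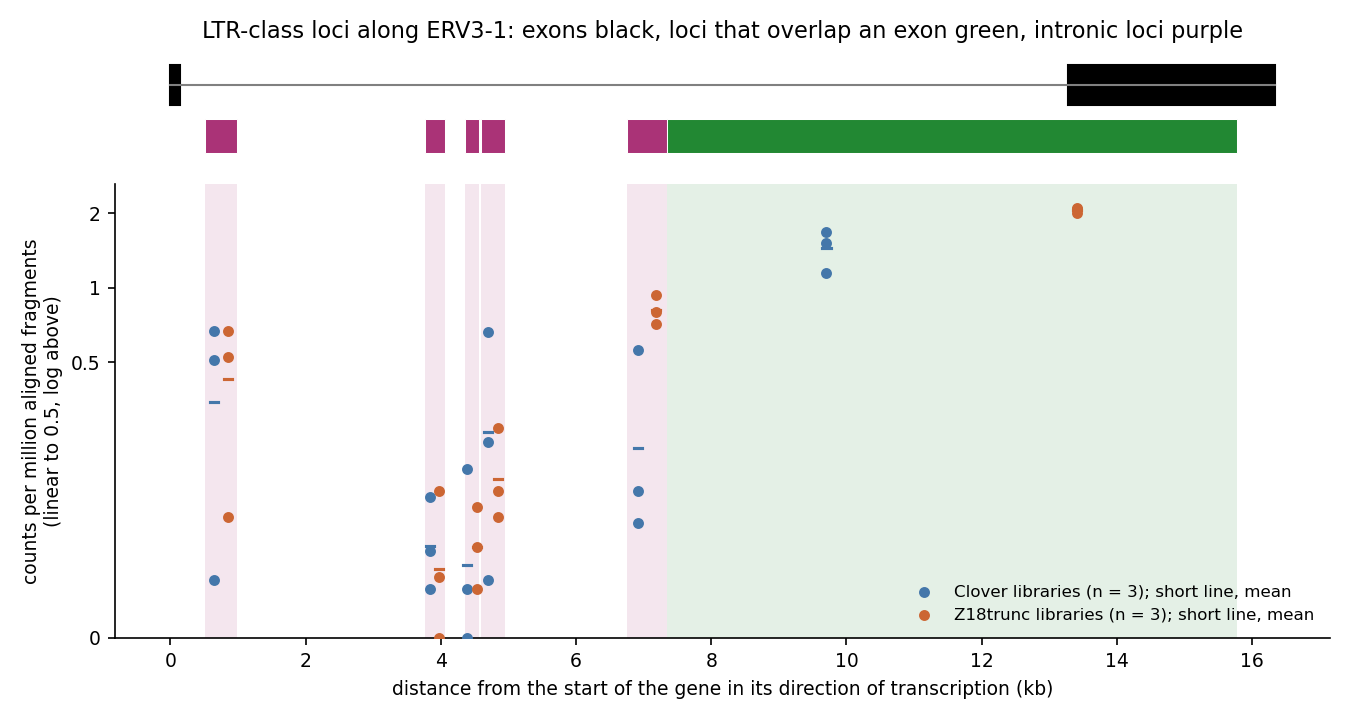
CPM (y axis, linear to 0.5 and logarithmic above) of fragments in the direction of ERV3-1 at its 6 LTR-class positions, against the distance from the gene start in kb, with each point a library, short lines the group means, exons in black, the exonic locus in green and intronic loci in purple. Groups are apart at HERV3-int, from 1.15 to 1.68 CPM against 2.0 to 2.09 CPM, and at the 5′ LTR4 copy beside it, and overlap at the 4 loci nearer the start.

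ERVK13-1 had the least divergent pair of LTRs, 2 LTR13 copies with 97.4% identity over 1003 aligned bases. Its HERVK13-int stretch (2661288 to 2668373) held 29, 28 and 22 counts in Clover and 49, 25 and 33 in Z18trunc, or 1.29 ± 0.171 and 1.71 ± 0.422 CPM (SD, n = 3 each), with overlap (log2 change 0.41, SE 0.27, edgeR adjusted p = 0.658). The 5′ LTR13 copy (2669525 to 2670537) held 1, 1 and 7 counts against 8, 2 and 10.6, and the 3′ copy (2660262 to 2661287) 6, 10 and 3 against 9, 3 and 10.4. Both overlapped, and 70.9% and 65.2% of their fragments were uniquely mapped. Summed over the 4 positions the values were 1.79 ± 0.217 and 2.48 ± 0.646 CPM (log2 ratio 0.47, exact permutation p = 0.2).

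The nearest neighbours of the 4 genes within 50 kb were read the same way. DANCR, a noncoding RNA gene 21856 bases from ERVMER34-1, was at 341 ± 7.32 TPM in Clover and 429 ± 10.9 TPM in Z18trunc (SD, n = 3 each), without overlap (log2 change 0.33, SE 0.07, limma adjusted p = 0.0773). ZNF8, the zinc-finger gene 2583 bases before ERVK3-1, was at 2.87 ± 1.11 and 3.83 ± 0.210 TPM, and ZSCAN22, 11337 bases after it, at 3.61 ± 0.165 and 3.58 ± 0.182 TPM, both with overlap. KCTD5, 9084 bases from ERVK13-1, overlapped at 51.4 ± 2.75 and 52.7 ± 1.72 TPM, and so did FLJ42627 on its other side at 1.53 ± 0.279 and 1.86 ± 0.165 TPM and CCT6P3, 31667 bases from ERV3-1, at 1.71 ± 0.436 and 1.88 ± 0.273 TPM.

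Genes that silence ERV chromatin were all expressed. Of 14 listed, 14 were tested and 0 were called by limma (2 of 14 at an unadjusted p under 0.05, beside 28.5% of all genes), with 11 log2 changes above 0, beside 68% of all genes. Their median was 0.18, beside 0.11 for all genes, and 0.08 after quantile normalization, beside -0.01. TRIM28, the corepressor that KRAB zinc-finger proteins recruit, was at 618 ± 28.3 TPM in Clover and 581 ± 36.3 TPM in Z18trunc, and SETDB1, the histone H3 lysine methyltransferase it brings, at 11.3 ± 1.14 and 13.3 ± 1.20 TPM (SD, n = 3 each). The groups did not overlap, higher in Z18trunc, at 6 of the 14, beside 30.1% of all genes. CBX3, a heterochromatin protein, was one of these, at 165 ± 4.43 and 220 ± 26.0 TPM (log2 change 0.40, SE 0.10, limma adjusted p = 0.0823). The 3 listed receptors of ERV envelopes were present, and 0 were called by limma, beside 0.015% of all genes. At an unadjusted p under 0.05 there were 0, beside 28.5% of all genes, and 3 genes are too few to compare with that share. SLC1A5, the receptor of syncytin-1, was at 3570 ± 66.4 and 3490 ± 133 TPM, and MFSD2A, that of syncytin-2, at 22.1 ± 2.46 and 20.5 ± 0.810 TPM, both with overlap. Of 7 restriction factors tested, 0 were called by limma, with 3 of 7 at an unadjusted p under 0.05, beside 28.5% of all genes. SAMHD1, which depletes nucleotides for reverse transcription, was at 16.7 ± 2.73 and 22.1 ± 0.304 TPM (log2 change 0.39, limma adjusted p = 0.0991), and BST2, which tethers virions, at 98.7 ± 4.91 and 85.1 ± 3.56 TPM (log2 change -0.21, limma adjusted p = 0.127).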

How the data were processed

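The authors sequenced stranded libraries of polyadenylated RNA and counted TEs with SQuIRE on hg38. The submitters' notes name cutadapt 4.6, and for the SQuIRE step an aligner version is not given in the sources used here. The deposited TE tables give, per RepeatMasker locus and strand, whole-number counts of uniquely mapped fragments and an estimated count in which the authors had shared multiply mapped fragments. The deposited gene tables give TPM and FPKM, which were summed by Gene ID. TPM was the main value, FPKM an alternative.

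TPM was tested as log2(TPM + 1) with limma 3.58.1 in R 4.3.3 over genes averaging 1 TPM or more, a scale that understates changes of low genes. Estimated counts, rounded, were tested with edgeR 4.0.16 (quasi-likelihood) over LTR, LINE, SINE and DNA loci with at least 30 counts, with aligned fragments as library size. Both were adjusted by Benjamini-Hochberg over all features and called at 0.05. Sums were compared by exact permutation. bedtools 2.31.1 gave exon overlap with GENCODE 44 and Biopython 1.88 aligned LTR pairs (match 1, mismatch -1, gap open -3, gap extension -0.5). In simulated data for Z18trunc against Clover, 83.5% of 200 genes changed 2-fold were called over 13300 genes, and 71.5% of 200 loci changed 4-fold over 12453 loci. Of the calls, 5.65% for genes and 2.05% for loci fell on unchanged features. The largest log2 change at a tested locus of the 4 genes was 1.30, which is below 4-fold. The simulated share for loci therefore does not tell how often such changes are called.

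The 6 sample titles gave groups and replicate numbers. P-values measure the spread between these libraries, which may in part be technical. The members and the lists were chosen with earlier results of these data known. Named loci were, for each gene, up to 5 with the most counts, and others are said to be chosen after their values were seen. Alternatives were TMM scaling, opposite-strand TE counts as library size, DESeq2 1.42.0, uniquely mapped counts, at least 10 counts, a pseudocount of 0.1, no filter on TPM, quantile normalization, limma's intensity trend, a replicate block and leaving out each library. The opposite-strand fit and the exonic and intronic sums were added after the data were seen.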

Additional observations from a re-analysis of the deposited data

How the results depend on the processing

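The log2 change of ERV3-1 was 0.04 and turned to -0.15 with quantile normalization, -0.016 with FPKM and from -0.14 to 0.14 over left-out libraries. That of ERVK13-1 turned from 0.05 to -0.025 with quantile normalization. ERVMER34-1 and ERVK3-1 kept their sign, and 0 of the 4 passed under any alternative. The 2 genes called became 1 with a pseudocount of 0.1, with quantile normalization, with the replicate block and with no filter on TPM, 60 with limma's intensity trend, and 1 to 4 over left-out libraries (4 without Clover replicate 2). The 12 LTR loci called became 3 with TMM scaling, 2 with opposite-strand library sizes, 0 on the opposite strand of the locus, 8 with DESeq2, 16 with uniquely mapped counts, 17 with the replicate block and 6 to 14 over left-out libraries. The call at HERVK3-int (58307323) in ERVK3-1 was lost with opposite-strand library sizes (0.72, edgeR adjusted p = 0.271), and DESeq2 gave it no adjusted p (log2 change 0.74).

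Signs turned at loci with changes near 0 or few counts. HERVK3-int at 58314651 went from 0.06 to -0.10 with TMM scaling and with DESeq2, -0.12 with opposite-strand library sizes and -0.16 to 0.26 over left-out libraries. LTR13 at 2660262 went from 0.17 to -0.0064 with opposite-strand library sizes, -0.0072 with DESeq2 and -0.14 to 0.71 over left-out libraries. Over left-out libraries MER21C ran from -0.78 to 0.29, HERVK3-int at 58311249 from -0.066 to 0.11, the exonic ERVK3-1 sum from -0.06 to 0.06 and the intronic ERV3-1 sum from -0.012 to 0.87. The ERVK3-1 sum turned from 0.11 to -0.086 per opposite-strand count and was -0.19 on the opposite strand, whereas its intronic part stayed between 0.57 and 0.85. The cause was not tested. The replicate block turned HERVK3-int at 58311249 to 0.005 and changed no call at a member. Deviations of same-numbered libraries from their group means correlated at -0.0372 to 0.0172 over genes. A pairing by number is not seen in these values, though they cannot tell how the lines were made.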

Other observations

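As a description over 6 libraries that share groups and depth, the genes whose log2(TPM + 1) ran most like each member were found by Pearson correlation. For ERVK3-1 these were XPC (r = 0.990), SHANK3 (0.982) and ZNF852 (0.981), for ERVMER34-1 WDR12 (0.998), YLPM1 (0.997) and AK4 (0.997), for ERV3-1 RAN (0.988), ALDH1B1 (0.986) and LINC01234 (0.986), and for ERVK13-1 TMEM106C (0.993), OSTC (0.993) and PIK3AP1 (0.992). As many as 10.9% of the 13300 genes had r above 0.9 with ERVMER34-1, against 1.72% with ERV3-1, 1.36% with ERVK13-1 and 0.963% with ERVK3-1.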
